A study of Homo sapiens with 2 samples.

Results

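The regions described here were the open-chromatin peaks around MYC and PVT1 on human chromosome 8. Every peak whose start lay between 124 and 132 Mb on GRCh38 was taken, which gave 790 of the 187920 peaks in the deposited matrix. The span was chosen by its share of peak counts in the 5 lines, seen beforehand, so levels within it are a description and carry no test. Of the 790 peaks, 458 (58.0%) reached the minimum of 100 counts over the barcodes used, against 53.0% of all peaks, and 332 did not. Their median width was 879 bases, close to the 881 bases of all peaks.

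MYC encodes a transcription factor that drives ribosome production, metabolism and cell growth, and pairs with MAX to bind DNA. PVT1 is a long noncoding RNA gene that starts shortly downstream of MYC, and the gene-poor ground on both sides holds noncoding RNA genes and distal enhancers of MYC. MYC and PVT1 are often gained together in carcinomas, lung adenocarcinoma included. A count of ATAC fragments rises both with the openness of a region and with the number of DNA copies a cell carries, and the 2 cannot be told apart in these data.

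The study mixed 5 human lung adenocarcinoma cell lines (A549, H838, H1975, H2228 and HCC827) that had been cultured separately, dissociated and frozen. The mixture was captured in 1 tube, and the RNA and ATAC libraries analysed here came from its 80% fraction. The labels name no treatment or edit of any line and 1 culture per line. There was 1 library of each kind, so lines are compared by level, with no test.

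All 3298 barcodes carried both RNA and ATAC counts. After filtering 2804 barcodes were kept, and 2261 of them (80.6%) were given to 1 of 5 lines by 50 marker genes, none on chromosome 8. The other 543 were left out, and in 127 of them the 2 largest line shares were those of the DHRS2-marked and S100A9-marked lines. The groups were 690 A549-like barcodes (ALDH1A1, CPS1, CYP24A1), 414 HCC827-like (EGFR, CEACAM5), 421 marked by S100A9 and CST1, 527 marked by MAGEA10 and 209 marked by DHRS2. Each line's markers were highest in their own group because they defined it. Markers listed for H2228 were highest in the S100A9-marked line in 3 of 4 cases, and those for H1975 and H838 were divided among lines, so these 3 names were given to no group. The leading-line share was a cut on a score, and 116 barcodes lay within 5 points above it and 88 within 5 points below. Median depth per line ran from 4538.5 to 13227 UMIs and from 12324 to 32083 peak counts. The median mitochondrial share of UMIs differed too, at 0.42% in the A549-like and MAGEA10-marked lines, 8.95% in the S100A9-marked, 9.75% in the DHRS2-marked and 13.8% in the HCC827-like line. Of 11 markers of blood, endothelial and stromal cells, DCN and HBB had no UMI in any line, and the summed level ran from 8.83 CPM (counts scaled to the same fixed total in every line) in HCC827-like to 228 CPM in S100A9-marked barcodes, mostly PECAM1 and COL1A1.

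By counts, the DHRS2-marked line held the largest share of its peak counts in the 8 Mb around MYC, mostly through 700 kb. With each peak counted once per barcode the order of the first 2 lines turned: the log2 ratio of the span to the mean of the other lines was then 0.51 in HCC827-like and 0.38 in DHRS2-marked barcodes, against 0.28 and 1.30 by counts. The span took 1.02% of the peak counts in DHRS2-marked barcodes (exact 95% Poisson interval 1.01 to 1.03, computed on fragments of 2 counts; all intervals here cover counting error only). It took 0.626% (0.618 to 0.634) in HCC827-like barcodes. The share was 0.338% (0.334 to 0.342) in A549-like, 0.343% (0.338 to 0.348) in MAGEA10-marked and 0.351% (0.348 to 0.355) in S100A9-marked barcodes. The last 3 lines thus lay close together, with the DHRS2-marked and HCC827-like lines above them. Against the mean of the other 4 lines, the DHRS2-marked share was 2.47-fold and the HCC827-like share 1.22-fold. The remaining 7890 peaks of chromosome 8 did not show this order: the DHRS2-marked line was at 0.785 of the mean of the others there and the HCC827-like line at 1.22.

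The span was then read in 100 kb bins. Of its 80 bins, 79 held a peak and 75 were measured (100 or more counts). A bin was counted as higher when its CPM was at least 2-fold the mean of the other 4 lines. In the DHRS2-marked line 13 of 75 bins were higher (12.2% of all measured bins of the genome were) and in the HCC827-like line 29 (9.44%). In the S100A9-marked line 11 were higher (12.1%), in the MAGEA10-marked line 3 (7.32%) and in the A549-like line 2 (6.74%). As shares of the 75 bins these were 17.3% in DHRS2-marked, 38.7% in HCC827-like and 14.7% in S100A9-marked barcodes, and only the HCC827-like share was several-fold its background.

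**Figure D1:**
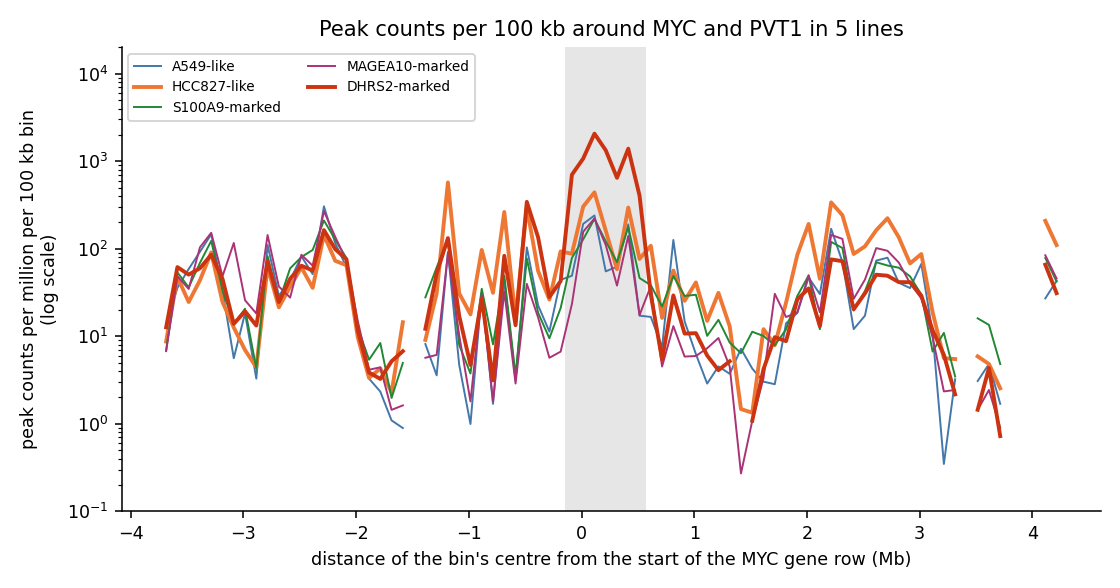
Peak CPM in each measured 100 kb bin (log scale) against distance from the start of the MYC gene row in Mb, 1 line per cell line. Grey marks the 700 kb stretch, where the DHRS2-marked line runs between 404 and 2065 CPM per bin and every other line at most 441 CPM; a bin with no count is not drawn.

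The DHRS2-marked excess formed 1 run of 7 bins, chr8:127600001-128300000, with 127 peaks. It began 0.135 Mb before the start of the MYC gene row and ended 0.565 Mb after it, so it held MYC and the whole PVT1 gene row. The stretch took 7618 CPM of the DHRS2-marked line's peak counts. It took 1424 CPM in HCC827-like, 841 CPM in S100A9-marked, 806 CPM in A549-like and 708 CPM in MAGEA10-marked barcodes. The DHRS2-marked level was 8.06-fold the mean of the others and 5.35-fold the highest of them. In the 663 other peaks of the span the same line was, in sum, at 0.820 of the mean of the others, although 6 of its 13 higher bins lay there. Counting each peak once per barcode, in place of its counts, brought the log2 ratio of the stretch from 3.01 to 1.57.

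The stretch was taken as the longest run of higher bins in the DHRS2-marked line, so all 7 bins were higher by definition. Their ratios ran from 5.50 to 11.9. The ratio was 11.8 in the first bin (127.6 to 127.7 Mb, 702 CPM) and 5.50 in the bin of MYC and the start of PVT1 (127.7 to 127.8 Mb, 1073 CPM). Within PVT1 it was 7.36 (127.8 to 127.9 Mb, 2065 CPM), then 11.9 (1336 CPM), the highest of this line's bins, and 11.3 (128.0 to 128.1 Mb, 646 CPM). It was 6.93 in the next bin (1392 CPM) and 10.3 in the last (128.2 to 128.3 Mb, 404 CPM). The bins where the other lines had most counts had the lower ratios. The bin that followed, 128.3 to 128.4 Mb, was at 29.9 CPM and a ratio of 0.596.

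Peak by peak, the stretch was raised almost throughout. Of its 127 peaks, 106 were measured, 97 of them were at least 2-fold higher in DHRS2-marked barcodes and 96 were highest in that line of all 5. Their median ratio was 7.01, the middle 50% of peaks ran from 4.50 to 10.9 and the highest was 27.8. Over the whole span 147 of 458 measured peaks were higher in this line (15.9% of all measured peaks of the genome were), and 50 of these lay outside the stretch. In the other direction 132 of 458 were at least 2-fold lower (21.5% of all measured peaks were), 1 of them in the stretch. Since the rule chose the span for these values, the counts only describe where they lie. With each peak counted once per barcode 71 peaks of the span were higher, and against the highest other line 95. Lower were 64 peaks with each counted once per barcode, and 20 against the lowest other line. The 53 measured peaks of the stretch within 2000 bases of a gene row had a median ratio of 6.24 and the 53 farther away 7.63. The excess was thus not limited to peaks by gene rows. Of the nearer peaks 47 lay in or by the long PVT1 row, so the split does not compare gene starts with other sites. Against the megabase around them 14 of the 106 stood 2-fold over and 18 stood 2-fold under.

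The peaks at the start of MYC were raised by less than the typical peak of the stretch. All 4 peaks within 2000 bases of the MYC gene row were measured and higher, with ratios of 4.59 to 5.42. The strongest of them, chr8:127735720-127736556, lies inside that row and was at 240.1 CPM (225 to 256) in DHRS2-marked, 93.2 CPM in HCC827-like, 48.9 CPM in A549-like, 34.6 CPM in MAGEA10-marked and 30.2 CPM in S100A9-marked barcodes. The DHRS2-marked value stood above all others and the HCC827-like value came next. A count was present in 78.5% of DHRS2-marked barcodes and in 26.4% to 45.7% of those of the other lines. Where it was present, a barcode held a mean of 12.1 counts in the DHRS2-marked line and 2.76 to 4.08 counts elsewhere.

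PVT1 had a peak over the first base of its row, chr8:127794020-127794917. It was at 214 CPM (200.1 to 229) in DHRS2-marked barcodes, 40.0 CPM in HCC827-like, 34.2 CPM in A549-like, 28.9 CPM in MAGEA10-marked and 25.3 CPM in S100A9-marked barcodes, a ratio of 6.66. Here only the DHRS2-marked line stood apart. Of 49 peaks within 2000 bases of the PVT1 row, 47 were measured and 41 were higher in this line, with a median ratio of 6.60 and a range of 0.759 to 27.8.

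The strongest peak of the stretch in this line, named after its value was seen, lay upstream of MYC. It was chr8:127668401-127669296, 67.0 kb before the MYC row, at 548 CPM (526 to 572) against 13.3 to 59.1 CPM elsewhere. It was present in 87.1% of DHRS2-marked barcodes, which held a mean of 25 counts and at most 253. It was present in 52.5% of S100A9-marked, 36.2% of A549-like, 28.7% of HCC827-like and 12.3% of MAGEA10-marked barcodes.

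High counts per barcode were general in the stretch. Over its measured peaks, 39.4% of the non-zero entries of DHRS2-marked barcodes exceeded 4 counts, against 4.80% to 14.6% in the other lines. In the rest of the span the same share was 8.60% in DHRS2-marked barcodes, inside the 6.46% to 10.0% of the others.

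**Figure D2:**
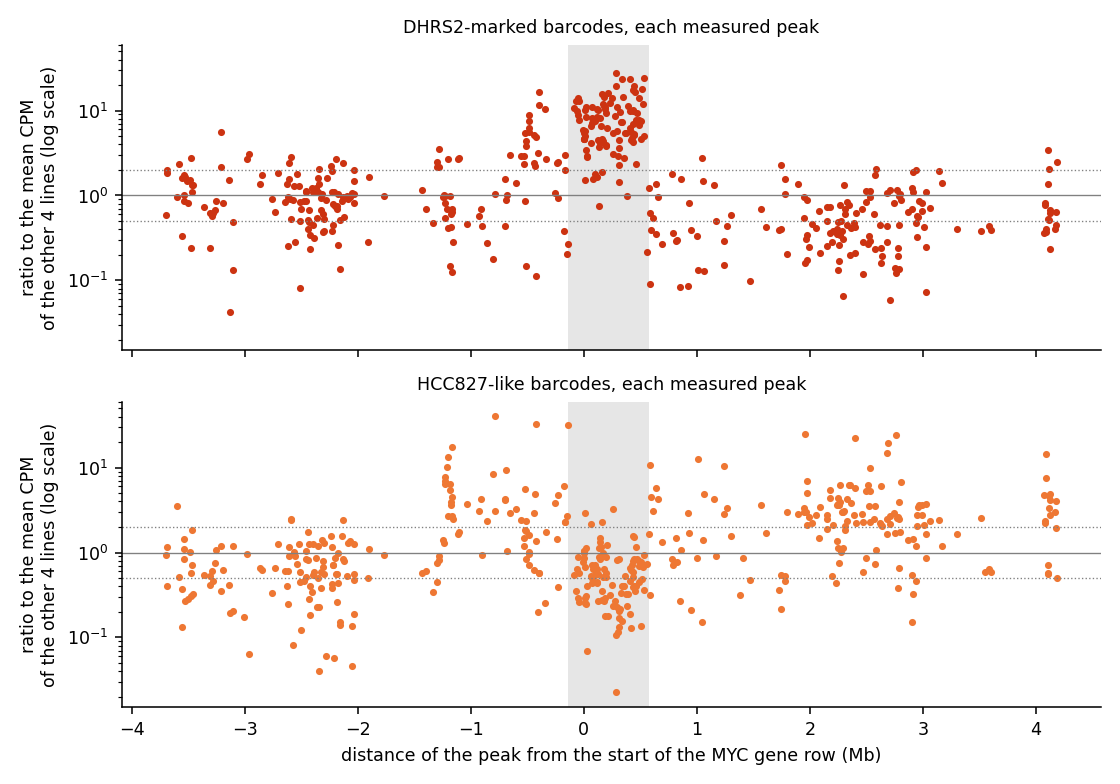
Ratio of each measured peak's CPM to the mean of the other 4 lines (log scale) against distance from the start of the MYC gene row, for DHRS2-marked (top) and HCC827-like barcodes (bottom). Dotted lines mark 0.5 and 2, grey marks the stretch and peaks with no count in the line are not drawn; 97 of 106 DHRS2-marked peaks in the grey band lie at or above 2.

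A minority of peaks in the stretch did not follow it. The measured peaks below a ratio of 2 in DHRS2-marked barcodes numbered 9, and 5 of the 106 were higher in A549-like, 4 in HCC827-like, 2 in MAGEA10-marked and 1 in S100A9-marked barcodes. The peak chr8:128117179-128118065 was at 12.7 CPM in A549-like barcodes, 3.86 CPM in DHRS2-marked and at most 1.30 CPM in the others. Inside PVT1, chr8:127870241-127871122 was at 28.2 CPM in A549-like, 12.3 CPM in HCC827-like, 8.92 CPM in DHRS2-marked and at most 4.38 CPM in the other lines. Also inside PVT1, chr8:127832988-127833765 was at 22.4 CPM in MAGEA10-marked and 18.0 CPM in DHRS2-marked barcodes. At these sites another line exceeded the DHRS2-marked one although the sites around them were many-fold higher in the latter.

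By ratio to the other lines, the raised levels of the stretch began and ended between neighbouring measured peaks. The last measured peak before it, chr8:127595922-127596831, was at 2.17 CPM (0.992 to 4.12) in DHRS2-marked barcodes and at 30.7 CPM in HCC827-like ones. The first inside it, chr8:127643907-127644701, was at 13.9 CPM (10.5 to 17.9), a ratio of 10.8. At the other end chr8:128267082-128268017 was at 133 CPM (ratio 24.1) and chr8:128269216-128270075 at 18.1 CPM (ratio 5.07). The next measured peak, chr8:128296037-128296911, fell inside the last bin but was at 0.362 CPM (0.0260 to 1.55), a ratio of 0.218. The first peak after the bin was at 3.13 CPM, a ratio of 1.23. The raised ground therefore ended between 128270075 and 128296037 on chromosome 8, within the resolution of measured peaks.

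A second, weaker run in DHRS2-marked barcodes lay upstream, in 4 bins from 127.1 to 127.5 Mb with 48 peaks. Together these held 520.2 CPM, 2.93-fold the mean of the others. The ratio was highest, 4.76, in the bin from 127.3 to 127.4 Mb, which holds the start of the POU5F1B row. There chr8:127339793-127340701 was at 41.6 CPM against at most 7.10 CPM elsewhere. The bin from 127.5 to 127.6 Mb separated the 2 runs with a ratio of 1.03. It was at 42.7 CPM in DHRS2-marked barcodes and at 6.67 to 93.3 CPM in the others, highest in HCC827-like ones. The separation is thus one of ratio to the other lines. Single bins at 126.0 Mb (3.06-fold, 5.18 CPM) and 126.4 Mb (2.05-fold, 52.2 CPM) were also higher.

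The DHRS2-marked line had 14 bins at or below 0.5 of the mean of the others (12.4% of all measured bins were). They included 3 bins from 129.7 to 130.0 Mb (ratio 0.407), 2 from 128.4 to 128.6 Mb (0.472), 2 from 130.3 to 130.5 Mb (0.459) and 2 from 129.1 to 129.3 Mb (0.130). Its bin from 129.1 to 129.2 Mb had no count, which allows up to 0.723 CPM at 3 fragments. With TMM factors (a scaling by the bulk of the peaks) 10 bins were higher and 23 lower, against 13 and 14. Set against the lowest other line 1 bin was lower, and with each peak counted once per barcode 8 were.

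HCC827-like barcodes were raised over broad ground on both sides of the stretch. Inside it 4 peaks were higher, against a mean that the DHRS2-marked line dominated. Against the median of the other lines the whole stretch was at 1.73 in HCC827-like barcodes, next to 1.83 for the rest of the span. Outside the stretch the span took 4835 CPM of their peak counts, 1.83-fold the mean of the other lines and 1.78-fold the highest of them. Over the whole span 146 of 458 measured peaks were higher in this line (13% of all measured peaks were), and 142 of these lay outside the stretch. With each peak counted once per barcode 83 were higher, and against the highest other line 75. At least 2-fold lower were 119 peaks (26.3%) and 8 bins (13.8%). Set against the lowest other line 25 peaks and 1 bin were lower, and with each peak counted once per barcode 47 peaks and 5 bins. In the 5 Mb after the span the line was at 2.13-fold the mean of the others, while in the 5 Mb before it was at 1.21-fold. The DHRS2-marked line was at 0.498 and 0.978 in the same 2 windows.

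The longest HCC827-like run held 10 bins and 137 peaks from 129.6 to 130.6 Mb, over GSDMC, FAM49B and ASAP1. It took 1618 CPM against 415 to 698 CPM in the other lines, a ratio of 2.90. A second run of 8 bins lay from 126.5 to 127.3 Mb, over LRATD2, PCAT1 and CASC19, at 1325 CPM and a ratio of 3.71. It contained the line's highest bin, 126.9 to 127.0 Mb, at 8.52-fold but only 31.3 CPM. Shorter runs lay at 128.7 to 129.1 Mb (2.99-fold) and 131.8 to 132.0 Mb (3.05-fold), with single bins at 126.1, 127.5, 128.3, 129.3 and 130.7 Mb. The line's lowest bin, 128.0 to 128.1 Mb inside the stretch, was at 0.286 of a mean that the DHRS2-marked line dominated.

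The 3 peaks with the largest ratio to the next line in HCC827-like barcodes all lay in these runs. They were chr8:126951136-126952054 inside the PCAT1 row (13.7 CPM against at most 0.674), chr8:129690510-129691431 near CCDC26 (10.7 CPM against 0.541) and chr8:130497501-130498408, 53826 bases from ASAP1 (10.4 CPM against 0.596). Read against the megabase around each peak, others led. They were chr8:127595922-127596831 (30.7 CPM, 44.7 times the local ratio), chr8:127311539-127312372 in the PCAT1 row (23.3 CPM, 25.2 times) and chr8:128322474-128323384 over AC100822.1 (37.0 CPM, 17.7 times). The first and the last of these stand just outside the 2 ends of the stretch, with local ratios of 0.708 and 0.608. There the DHRS2-marked counts raise the mean of the other lines and so lower the local ratio. The position of these 2 peaks is thus in part set by the measure. The same applies to the local ratios given below for other lines near the stretch.

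In DHRS2-marked barcodes the peaks that led by ratio to the next line were all within the stretch. They were chr8:128141826-128142739 (30.3 CPM against at most 1.93), chr8:128018487-128019370 in the PVT1 row (125 CPM against 8.11) and chr8:128016228-128017089 in the same row (43.2 CPM against 3.23). The local ratio was 7.17 to 7.34 around each, so most of their excess was shared with their neighbours. By ratio over the surrounding megabase weaker peaks far from MYC led. These were chr8:131842920-131843732 (4.46 CPM, 6.59 times), chr8:124527052-124527892 near TATDN1 (11.0 CPM, 6.57 times) and chr8:128776738-128777617 (3.01 CPM, 5.69 times).

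The other 3 lines were more often lower than higher in the span, and were higher mostly at single sites and short runs. In A549-like barcodes 39 of 458 peaks were higher (11.9% of all measured peaks were) and 264 were lower (40%), 185 of these outside the stretch. Of their 75 bins 33 were lower (29%). Set against the lowest other line 58 peaks and 6 bins were lower, and with each peak counted once per barcode 113 peaks and 23 bins. The leading one, chr8:128584816-128585665, was at 21.0 CPM against at most 1.47 and lay 23689 bases from the LINC00824 row. It was followed by chr8:128526138-128527044 in that row (6.46 CPM against 1.34) and chr8:129145539-129146426 in the CCDC26 row (4.87 CPM against 1.07). The same peaks led by ratio over their megabase, at 24.1 to 68.8 times. The line's 2 higher bins, at 128.5 Mb (3.42-fold) and 129.1 Mb (3.54-fold, its highest), hold these peaks, and its lowest was 130.9 to 131.0 Mb (0.348 CPM, ratio 0.0555).

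MAGEA10-marked barcodes had 44 higher peaks (11.1% of all measured peaks were) and 241 lower ones (36.9%), 153 of the latter outside the stretch, and 31 lower bins (26.8%). Set against the lowest other line 34 peaks and 3 bins were lower, and with each peak counted once per barcode 119 peaks and 25 bins. Their highest bin, 124.6 to 124.7 Mb in the MTSS1 row, was at 116 CPM and 10.1-fold. It held their leading peak, chr8:124601252-124602125, at 20.8 CPM against at most 1.07. The next were chr8:125307044-125307932 (7.03 CPM against 0.795) and chr8:129459538-129460439 in the CCDC26 row (16.0 CPM against 2.05), and bins at 124.8 Mb (2.89-fold) and 129.4 Mb (4.31-fold) were also higher. By ratio over the surrounding megabase chr8:128324121-128325038 led (16.4 CPM, 46.0 times), 989 bases from AC100822.1, followed by the MTSS1 peak (23.8 times) and chr8:126833612-126834486 in the PCAT1 row (6.49 CPM, 15.0 times). A run of 14 bins from 126.9 to 128.3 Mb was at 0.259 of the mean of the others, and the line's lowest bin, 129.1 to 129.2 Mb, at 0.0717. Against the median of the other lines, which the DHRS2-marked values move less, the stretch was at 0.625 in MAGEA10-marked, 0.712 in A549-like and 0.754 in S100A9-marked barcodes.

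S100A9-marked barcodes had 61 higher peaks (19.2% of all measured peaks were) and 184 lower ones (20.3%), 98 of the latter outside the stretch, and 15 lower bins (12.5%). Set against the lowest other line 24 peaks and 0 bins were lower, and with each peak counted once per barcode 67 peaks and 7 bins. Their leading peaks were chr8:129118687-129119644 in the CCDC26 row (4.67 CPM against at most 0.447), chr8:128681932-128682811 (8.76 CPM against 0.964) and chr8:129202164-129203062 (7.27 CPM against 1.09). By ratio over the surrounding megabase the first 2 also led, at 15.3 and 25.5 times, with chr8:128048926-128049756 at the far end of the PVT1 row next (12.7 CPM against at most 6.75, 11.9 times). Their 11 higher bins lay in 7 short runs. The strongest were 129.1 to 129.3 Mb (4.23-fold, with the highest bin at 5.79-fold) and 131.2 to 131.5 Mb (4.02-fold), both under 35 CPM. The others were 126.3 to 126.5 Mb (2.78-fold) and single bins at 125.9, 128.4, 128.6 and 130.9 Mb. Their lowest bin was 127.9 to 128.0 Mb, at 0.292.

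RNA of the same barcodes was set beside the peaks. Gene rows of the matrix mark transcription starts, many at a single base, and carry no strand, and whether counting used strand is not given in the sources used here. Of 71 gene rows that start in the span, 46 were measured (20 or more UMIs). With all 5 lines and both directions joined, a count not made over all genes, 36 of the 46 differed at least 2-fold from the mean of the other lines. The 10 rows that did not (SQLE, WASHC5, NSMCE2, RNF139, RNF139-AS1, TRMT12, ASAP1-IT2, AC090921.1, AC090198.1 and AC009682.1) lay between -0.95 and 0.96 on the log2(CPM + 1) scale, which understates changes of low genes. In HCC827-like barcodes 17 rows were higher (7.01% of all 19521 measured genes were) and 6 lower (19.4%). In DHRS2-marked barcodes 2 were higher (6.98%) and 19 lower (15.8%). In A549-like barcodes 6 were higher (12.7%) and 15 lower (18.5%), and in S100A9-marked barcodes 1 was higher (9.91%) and 16 lower (20.4%). In MAGEA10-marked barcodes 7 were higher (12.6%) and 15 lower (21.1%), or 4 and 15 with TMM factors. A single high line can raise the mean of the others. Set against the lowest other line 0 rows were lower in DHRS2-marked, HCC827-like and S100A9-marked barcodes, 2 in A549-like and 3 in MAGEA10-marked ones.

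With all mitochondrial classes pooled, MYC RNA was highest in HCC827-like and not in DHRS2-marked barcodes. MYC was at 120.3 CPM (112 to 129) in HCC827-like, 92.6 CPM (83.3 to 103) in DHRS2-marked, 48.4 CPM (43.8 to 53.5) in S100A9-marked, 24.3 CPM (19.8 to 29.6) in A549-like and 5.93 CPM (4.03 to 8.41) in MAGEA10-marked barcodes. No 2 neighbours in this order overlapped in their counting intervals. The log2 ratio to the mean of the other lines was 1.47 in HCC827-like and 0.88 in DHRS2-marked barcodes, the latter below the 2-fold limit, and -3.39 in MAGEA10-marked ones. The order of the first 2 turned with the mitochondrial share. At or below 1% mitochondrial UMIs MYC was at 194 CPM (160.1 to 234) in 86 DHRS2-marked and 81.2 CPM (54.8 to 116) in 68 HCC827-like barcodes. The remaining lines were at 7.19 to 49.2 CPM in this class, so MYC was highest in DHRS2-marked barcodes there. Above 5% it was at 71.9 CPM (63.0 to 81.7) in 115 DHRS2-marked and 123 CPM (114 to 133) in 325 HCC827-like barcodes.

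PVT1 RNA was highest in DHRS2-marked barcodes in both classes. It was at 2911 CPM (2858 to 2965) in DHRS2-marked, 1363 CPM (1328 to 1399) in A549-like, 859 CPM (836 to 883) in HCC827-like, 672 CPM (649.5 to 694) in MAGEA10-marked and 380.2 CPM (367 to 394) in S100A9-marked barcodes. Every step of this order exceeded the counting intervals, and it differs from that of MYC, with A549-like barcodes second. The log2 ratio was 1.83 in DHRS2-marked and -1.93 in S100A9-marked barcodes. At or below 1% mitochondrial UMIs the DHRS2-marked level was 6552 CPM, next to 1449 CPM in A549-like barcodes, and above 5% it was 2229 CPM next to 1118 CPM. With only barcodes led by their line at 95% or more, the S100A9-marked level was 287 CPM.

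CASC11, a noncoding gene whose row overlaps that of MYC, was the other row higher in DHRS2-marked barcodes, at 22.1 CPM (17.7 to 27.3) and a log2 ratio of 2.56. It was at 7.98 CPM in HCC827-like, 1.71 CPM in S100A9-marked, 1.45 CPM in A549-like and 0.573 CPM in MAGEA10-marked barcodes. Reads of CASC11 and MYC cannot be told apart with certainty without strand. The 3 rows whose levels over the 5 lines were most like MYC's (Pearson's r of log2(CPM + 1), a description over 5 points from 1 library) were LRATD2 (0.88), CASC11 (0.82) and CASC8 (0.73).

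**Figure D3:**
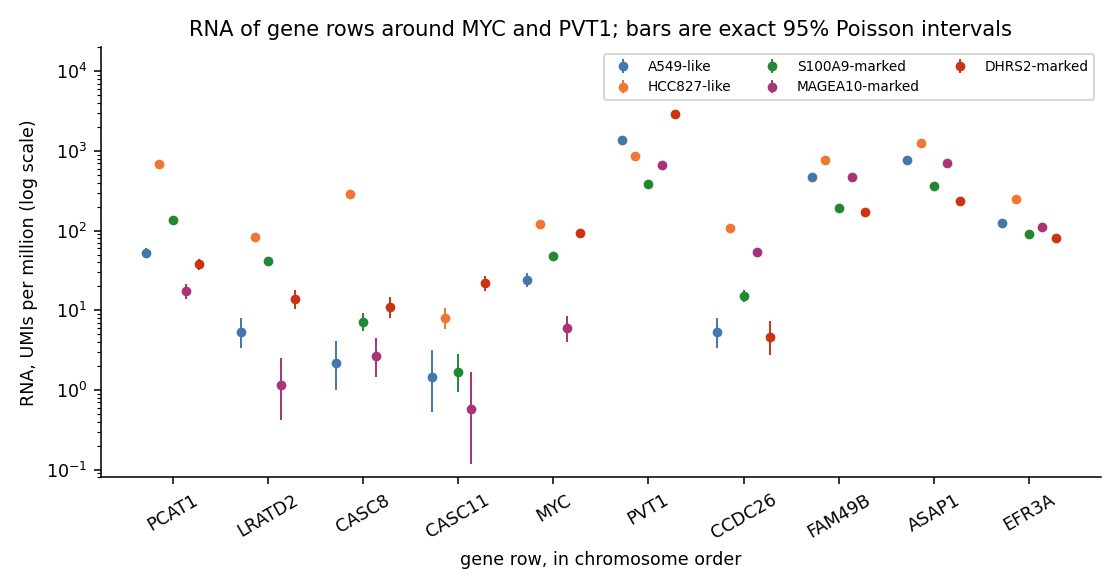
RNA of 10 gene rows of the span in CPM (log scale), in chromosome order, for each of the 5 lines; bars are exact 95% Poisson intervals. HCC827-like barcodes are highest for MYC and for 7 of the other rows, DHRS2-marked barcodes for PVT1 and CASC11.

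Upstream of MYC the noncoding rows were an HCC827-like group. PCAT1, a long noncoding RNA gene first described in prostate cancer, was at 682 CPM in HCC827-like, 137 CPM in S100A9-marked, 52.8 CPM in A549-like, 38.1 CPM in DHRS2-marked and 17.4 CPM in MAGEA10-marked barcodes. CASC8 was at 289 CPM in HCC827-like and at most 11.1 CPM in the other lines, a log2 ratio of 5.42. LRATD2, a protein-coding gene, was at 84.3 CPM in HCC827-like, 41.6 CPM in S100A9-marked, 13.9 CPM in DHRS2-marked, 5.30 CPM in A549-like and 1.15 CPM in MAGEA10-marked barcodes. HCC827-like barcodes were thus the highest at all 3. Smaller rows had the same leader: AC084116.1 at 31.3 CPM, with 0 or 1 UMI in each other line, AC024382.1 at 24.5 CPM, PRNCR1 at 17.3 CPM, AC084116.3 at 6.63 CPM, POU5F1B at 4.25 CPM and AC018714.2 at 3.91 CPM. None of these reached 6 CPM elsewhere. CASC19 departed from them, at 143 CPM in A549-like, 66.1 CPM in HCC827-like, 20.3 CPM in S100A9-marked, 2.57 CPM in DHRS2-marked and 1.53 CPM in MAGEA10-marked barcodes. The PCAT1 row overlaps those of LRATD2, CASC19, PRNCR1 and others, so their reads may be shared.

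Downstream of PVT1 the protein-coding rows ASAP1, FAM49B and EFR3A were highest in HCC827-like barcodes, while ADCY8 led in A549-like barcodes and GSDMC in MAGEA10-marked ones, the last within overlapping counting intervals of HCC827-like barcodes. ASAP1, which encodes an Arf GTPase-activating protein, was at 1277 CPM in HCC827-like, 776 CPM in A549-like, 711 CPM in MAGEA10-marked, 368 CPM in S100A9-marked and 235 CPM in DHRS2-marked barcodes. FAM49B (now CYRIB) was at 762, 469, 467, 192 and 174 CPM in the same order of lines. EFR3A was at 251 CPM in HCC827-like, 126 CPM in A549-like, 111 CPM in MAGEA10-marked, 91.8 CPM in S100A9-marked and 81.5 CPM in DHRS2-marked barcodes. All 3 were highest in HCC827-like and lowest in DHRS2-marked barcodes. CCDC26, a noncoding gene, was at 107 CPM in HCC827-like and 53.5 CPM in MAGEA10-marked barcodes, and at 15.1, 5.30 and 4.63 CPM in S100A9-marked, A549-like and DHRS2-marked ones. GSDMC, a gasdermin gene, was at 22.6 CPM in MAGEA10-marked, 20.2 CPM in HCC827-like, 10.0 CPM in S100A9-marked, 6.17 CPM in DHRS2-marked and 0.482 CPM in A549-like barcodes. The remaining rows at 2-fold there were low: AC103718.1 (17.8 CPM in HCC827-like), AC100822.1 (6.80 CPM), AC022973.5 (2.89 CPM), AC139019.1 (3.06 CPM in both HCC827-like and MAGEA10-marked), LINC00824 (4.59 CPM in MAGEA10-marked) and ADCY8 (7.23 CPM in A549-like). AC022973.4, AC022973.3 and AC131568.1 start within the FAM49B row. They were at 22.7, 11.8 and 25.3 CPM in A549-like, 23.1, 8.15 and 21.2 CPM in HCC827-like and 4.12, 1.80 and 3.60 CPM in DHRS2-marked barcodes, so A549-like barcodes led at the last 2.

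The rows at the upstream end of the span belonged to other lines. TMEM65, which encodes a mitochondrial membrane protein, was at 251 CPM in A549-like, 113 CPM in DHRS2-marked, 100.2 CPM in MAGEA10-marked, 54.2 CPM in HCC827-like and 38.7 CPM in S100A9-marked barcodes. MTSS1, which encodes a membrane-bending scaffold protein, was at 41.3 CPM in MAGEA10-marked, 9.88 CPM in A549-like, 2.20 CPM in S100A9-marked and 0.510 CPM in HCC827-like barcodes. It had no UMI in DHRS2-marked barcodes, which allows up to 0.772 CPM when the limit is set at 3 UMIs. NDUFB9 (174 CPM) and TATDN1 (159 CPM), whose rows are adjacent, were highest in MAGEA10-marked barcodes too, with 54.0 to 90.5 CPM and 48.1 to 81.1 CPM elsewhere. TRIB1, a pseudokinase gene, led in S100A9-marked barcodes at 26.1 CPM against 5.93 to 15.9 CPM. ZNF572 (6.88 CPM in MAGEA10-marked), AC016074.2 (2.10 CPM in MAGEA10-marked), AC090192.2 (8.20 CPM in A549-like) and WASHC5-AS1 (3.37 CPM in A549-like) were low in every line.

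Raised bins and raised RNA went together in part. In HCC827-like barcodes 21 measured rows started in a bin that was higher in that line, and 13 of them were higher in RNA, with a median log2 ratio of 1.29. Of the 25 rows in its other bins, 4 were higher, with a median of -0.57. In DHRS2-marked barcodes 7 rows started in a higher bin. Of these PVT1 and CASC11 were higher in RNA, and MYC, CASC8, POU5F1B, AC018714.2 and AC084116.1 were not. All mitochondrial classes were pooled here, and at or below 1% MYC was highest in this line. The median over the 7 rows was -0.86, next to -0.93 for the 39 rows elsewhere. Within the upstream run of DHRS2-marked bins no row was thus raised in RNA. The 2 rows in higher bins of the S100A9-marked line were not higher in RNA. With rows placed by their lower coordinate, no measured row started in a higher bin of the A549-like or MAGEA10-marked line. Rows that only run through such bins were not counted. The MTSS1 row runs through the highest MAGEA10-marked bin (10.1-fold), with an RNA log2 ratio of 3.35 in that line. The CCDC26 row runs through that line's bin at 129.4 Mb (4.31-fold), with 0.68. In A549-like barcodes CCDC26 was at -2.87 (bin at 129.1 Mb, 3.54-fold) and LINC00824 at 0.04 (128.5 Mb, 3.42-fold).

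The excess in the stretch was unequal among DHRS2-marked barcodes. Their share of peak counts in the stretch had a median of 5685 CPM, 5% of barcodes were below 1978 and 5% above 22861 CPM, and the highest was at 47487 CPM. Medians in the other lines were 1297 CPM in HCC827-like, 799 CPM in A549-like, 661 CPM in MAGEA10-marked and 564 CPM in S100A9-marked barcodes. The 5% point of the DHRS2-marked line thus lay above the median of every other line. Its variance among barcodes was 142 times what counting alone gives, against 5.83 times for the rest of the span in the same barcodes. At an equal relative spread this measure grows with the counts per barcode, so its sizes are not directly comparable. The median count in the stretch was 174 in DHRS2-marked barcodes and 12 to 18 in the other lines. The variance of the stretch share was 1.41 times that of counting in A549-like and 1.25 times in MAGEA10-marked barcodes. In HCC827-like barcodes it was 7.60 times, and 1.38 without 12 barcodes above 3000 CPM, whose median leading-line share was 95.6%. In S100A9-marked barcodes it was 38.4 times, and 7.78 without 5 such barcodes, whose leading-line share was low for the line (median 89.5%). Such a cut is made on the measure itself and so lowers its variance in any line. Without its 164 barcodes above 3000 CPM the DHRS2-marked line was at 1.70. With a leading share of 95% or more the variance over counting was 1.16 in the S100A9-marked, 8.65 in the HCC827-like and 78.9 in the DHRS2-marked line.

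**Figure D4:**
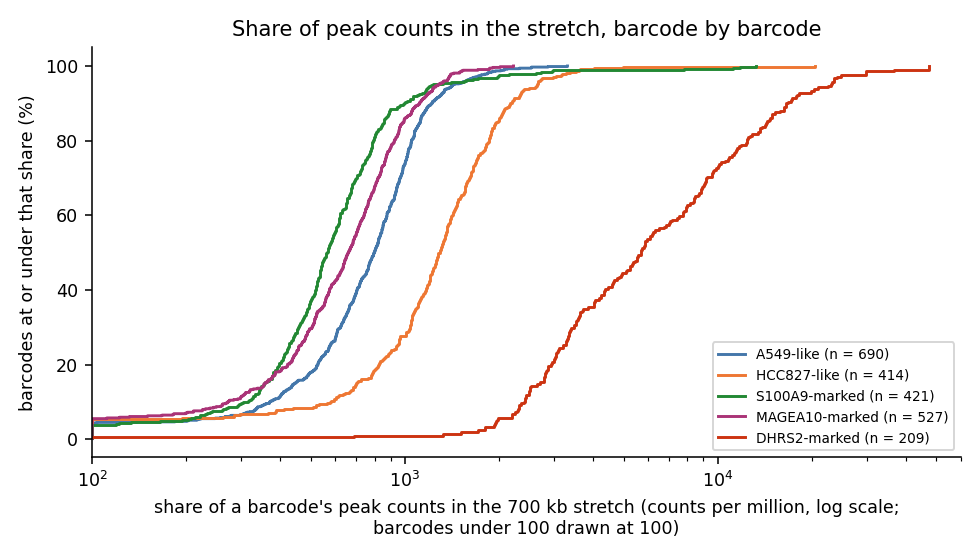
Cumulative percentage of barcodes (vertical axis) at or under a given share of peak counts in the stretch (CPM, log scale), 1 curve per line. The DHRS2-marked curve is shifted right and much wider than the others, from 1978 CPM at 5% of barcodes to 22861 CPM at 95%.

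Within the DHRS2-marked line the spread was the same in separate peaks and moved with PVT1 RNA. Shares over the 64 odd-numbered and the 63 even-numbered peaks of the stretch had Pearson's r of 0.950 and Spearman's rho of 0.897 over 209 barcodes, which share 1 library and each barcode's depth. The share and PVT1 CPM had r of 0.852 and rho of 0.771. For MYC CPM rho was 0.310, over barcodes of which 56.0% had a MYC UMI. Barcodes of 1 library are not replicates, and these values describe this culture only.

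**Figure D5:**
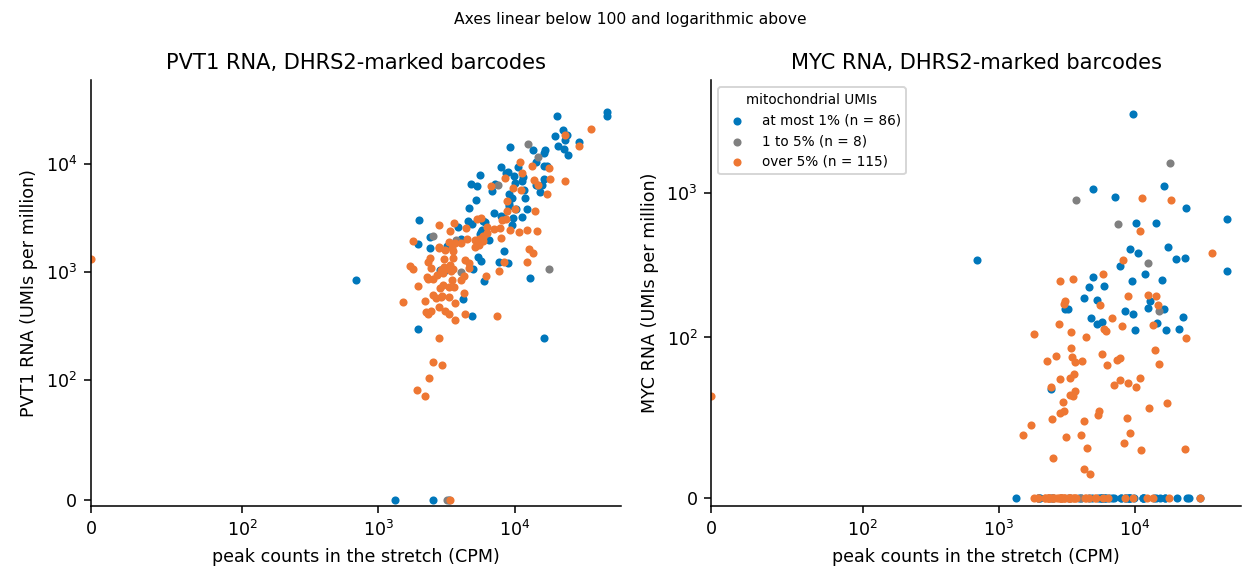
PVT1 (left) and MYC RNA (right) in CPM against the share of peak counts in the stretch (CPM) for each DHRS2-marked barcode, coloured by mitochondrial share; axes are linear below 100 and logarithmic above. PVT1 rises with the share in both the 86 barcodes at or below 1% and the 115 above 5%, while MYC scatters widely and is 0 in many barcodes.

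The DHRS2-marked barcodes were also ranked by the odd-numbered peaks and cut into terciles of 70, 70 and 69, which are ranges of a continuous measure: 42 barcodes lay within 10% of a cut. The stretch was at 2868, 5872 and 15693 CPM from the lowest to the highest tercile, and the even-numbered peaks, not used in the ranking, at 1788, 3579 and 9768 CPM. PVT1 was at 1102 CPM (1049 to 1157), 2099 CPM (2027 to 2174) and 7057 CPM (6888 to 7229.95). MYC was at 53.3 CPM (42.1 to 66.5), 102 CPM (86.8 to 120.0) and 139 CPM (116 to 165). Thus PVT1 differed 6.40-fold and MYC 2.57-fold between the highest and lowest tercile, and the 9 other well-measured rows of the span by 0.60-fold to 1.24-fold. CASC11 was at 7.52, 32.8 and 27.9 CPM.

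Among the well-counted bins of the genome, those much higher in the highest tercile all lay in this span. A bin needed 400 or more counts over the highest and lowest terciles together, which 4135 of 21446 measured bins reached. It could thus pass mainly through its counts in the highest tercile. Of the 4135 bins, 9 (0.218%) were at least 3-fold higher in the highest tercile, and all 9 lay between 127.2 and 128.3 Mb of chromosome 8. They were the 7 bins of the stretch (5.11-fold to 6.47-fold), which hold the peaks used in the ranking, and 2 bins outside the ranking. The latter were those at 127.2 Mb (3.19-fold) and 127.3 Mb (5.49-fold) of the upstream run. The bins between these and the stretch rose too but were under the 400-count minimum. They were at 3.21-fold (127.4 Mb, 123 and 47 counts) and 4.64-fold (127.5 Mb, 159 and 42 counts). In the other direction 1 bin (0.0242%) was at least 3-fold lower. The bin after the stretch, 128.3 to 128.4 Mb, was at 0.706. Peak by peak, the median ratio between these terciles was 5.52 over 101 peaks of the stretch. These include the odd-numbered peaks that set the ranking, so that value is in part fixed by it. Outside the ranking the median was 3.88 over 18 peaks in the bins at 127.2 and 127.3 Mb. It was 0.863 over 144 peaks in the rest of the span, those at 127.4 and 127.5 Mb included. Of 5188 genes with 100 or more UMIs, 9 (0.173%) were at least 3-fold higher and 42 (0.81%) at least 3-fold lower. PVT1 led the higher ones, and the others lay on other chromosomes (LINC01411, COL12A1, CXCL8, CECR2, CPNE4, SLC9A9, IGFBP3 and ISG15).

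The mitochondrial share moved with the terciles, at a median of 13.3%, 12.5% and 0.629%, as did the marker DHRS2, at 442, 240.3 and 180.5 CPM, and the median depth, at 16699, 12150 and 7970 UMIs. Their part in the RNA differences was not tested beyond the split that follows. The median leading-line share hardly moved, at 97.6%, 97.0% and 96.6%. With the barcodes of each mitochondrial class cut at their own median share, PVT1 was again higher where the stretch was. At or below 1% it was at 2723 CPM in the lower and 10120.1 CPM in the upper 43 barcodes, and above 5% at 1027 and 3240.1 CPM (57 and 58 barcodes). MYC was at 178 and 209 CPM in the first class and at 51.6 and 89.0 CPM in the second. In the first class the MYC levels lay close together while those of PVT1 did not.

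Genes outside the span that MYC is known to act on were read from a list of 38, of which 37 were found and measured. In DHRS2-marked barcodes 0 were higher (6.98% of all measured genes were) and 3 lower (15.8%), with a median log2 ratio of 0.04 (all measured genes: -0.17). Its 3 largest were PKM (0.80) and LDHA (0.79), both of glycolysis, and NOP56 (0.77), a nucleolar protein. Its 3 smallest were CDK4 (-1.89), a cell-cycle kinase, FBL (-1.19), a nucleolar methyltransferase, and RCL1 (-1.03), of ribosome assembly. CDK4 was at 38.6 CPM there, against 465 CPM in HCC827-like, 69.2 CPM in S100A9-marked, 25.3 CPM in A549-like and 23.3 CPM in MAGEA10-marked barcodes. BOP1, on chromosome 8 outside the span, was at -0.45. In HCC827-like barcodes, where MYC RNA was highest over all mitochondrial classes pooled, 1 target was higher (CDK4, 3.54). Of all measured genes 7.01% were higher in this line. Lower were 2 targets (19.4%), and the median was -0.01. In MAGEA10-marked barcodes, where MYC was lowest, 2 were higher (12.6%) and 2 lower (21.1%), with a median of 0.03. In A549-like barcodes 1 was higher (12.7%) and 5 lower (18.5%), with a median of -0.40. In S100A9-marked barcodes 4 were higher (9.91%) and 7 lower (20.4%), close to the share of all genes, with a median of -0.15. With TMM factors the sign of the median turned in 4 lines, to 0.17 in HCC827-like, 0.0059 in S100A9-marked, -0.081 in MAGEA10-marked and -0.0031 in DHRS2-marked barcodes.

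Of 25 listed partners and relatives of MYC 23 were measured. In DHRS2-marked barcodes 0 were higher (6.98% of all measured genes were) and 1 lower (15.8%), with a median of -0.06. The largest were MXD4 (0.66), an antagonist of MYC, MLXIP (0.47) and USP28 (0.42), which stabilises MYC. The smallest were KAT2A (-1.05), an acetyltransferase, RUVBL2 (-0.56) and MXD3 (-0.43). MAX, the partner of MYC, was at 89.8 CPM in DHRS2-marked barcodes, 80.9 CPM in HCC827-like, 103 CPM in S100A9-marked, 67.2 CPM in A549-like and 46.8 CPM in MAGEA10-marked barcodes.

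The ends of the span cut through low ground. The first peak inside, chr8:124030176-124031072, had 74 counts over all lines and the last outside it, chr8:123984368-123985206, had 97. At the far end the last inside, chr8:131955584-131956493, had 50 counts and the first beyond, chr8:132046436-132047235, had 52. None of these 4 peaks exceeded 2.24 CPM in any line.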

How the data were processed

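The authors deposited 1 joint matrix of raw counts, UMIs per gene row and peak counts per peak. It was made with Cell Ranger ARC 2.0.0 and has GRCh38 positions, per the submitters' processing notes and the file headers. The other deposited columns used, start and end positions per the file headers, are coordinates and are given 1-based. Of the non-zero peak entries 83.3% were even, so intervals used counts divided by 2. How barcodes and peaks were called is not given in the sources used here.

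Barcodes with 1000 UMIs, 500 genes, 1000 peak counts and at most 20% mitochondrial UMIs were kept (494 left out, 378 of them over 20%). A Poisson mixture of 5 line profiles over 50 markers gave each barcode's line shares, and a leading share of 80% with 3 marker UMIs was required; this also left out mixed droplets. Scrublet's automatic call marked 1 barcode and was not used; its 63 highest scores were removed as an alternative. Counts were summed per line and scaled to CPM of all peaks or all genes (total 131221183 peak counts and 62477861 UMIs over all barcodes). Ratios are to the mean CPM of the other 4 lines, with 1 added to RNA CPM. No p-value was made. Calls and assignment were tested on simulated data.

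The span, its markers and its gene lists were chosen with earlier results of these data known. Named were MYC, PVT1 and each measured row of the span, 3 extremes of each list, peaks by MYC and PVT1, and 3 leading peaks per line by 2 ratios. Alternatives changed the assignment, barcode and doublet filters, scaling (TMM, edgeR 4.0.16), binarising, bin width, comparator, minimum counts and pseudocount. Analyses used scanpy 1.11.5, numpy 2.4.6 and scipy 1.17.1.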

Additional observations from a re-analysis of the deposited data

How the results depend on the processing

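No paired analysis was possible because each kind of library was made once and no result came from a test. On the log2 scale the span share was 0.28 in HCC827-like and 1.30 in DHRS2-marked barcodes, and the stretch in the latter 3.01. These 3 values were 0.36, 1.26 and 3.04 at a leading share of 95%, 0.22, 1.41 and 3.11 with RNA clusters, 0.51, 0.38 and 1.57 with binarised peaks, and 0.26, 1.07 and 2.77 with TMM factors. Without the mitochondrial limit the last 2 were 1.25 and 2.93. Against the median of the other lines the 3 values were 0.85, 1.56 and 3.21, and with at most 1% mitochondrial UMIs 0.069, 1.66 and 3.30, both chosen after seeing the data. All 3 values stayed above 0 under every alternative run, but with binarised peaks the span share of HCC827-like barcodes exceeded that of DHRS2-marked ones. The variance over counting in DHRS2-marked barcodes was 78.9 at a leading share of 95%. Higher bins numbered 52 in HCC827-like and 23 in DHRS2-marked barcodes at 50 kb, and 12 and 5 at 250 kb, where fewer bins exist. Set against the highest other line, HCC827-like barcodes had 17 higher bins, 75 peaks and 11 gene rows, and DHRS2-marked barcodes 95 peaks. Higher peaks were 83 and 71 when binarised, 95 and 93 at a minimum of 200 counts and 69 and 80 with at most 1% mitochondrial UMIs, in the same order, and 273 in HCC827-like barcodes with no minimum. The cause was not tested. TMM factors moved the median log2 ratio of all measured genes by 0.18 in HCC827-like and -0.15 in A549-like barcodes, and that of all peaks by 0.33 in A549-like and -0.25 in DHRS2-marked barcodes. Depth limits single peaks: 332 of 790 stayed under the minimum, and the 209 DHRS2-marked barcodes are the fewest.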
